A study of Homo sapiens with 6 samples.

Results

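The RAB genes described here are the protein-coding genes named RAB with digits and at most 1 letter, a rule that used names and no measured value. It found 62 genes among 19902 protein-coding genes, and 60131 genes in all, in the deposited RPKM table (reads per kilobase of transcript, scaled to the reads of the library), and all 62 were also in the deposited table of normalized read counts, which has 28395 genes. RNA was sequenced from K562 cells, a human leukemia line with erythroid features, in 3 libraries carrying RUNX1 R320*, a premature stop in this blood-cell transcription factor, and 3 libraries with wild-type RUNX1 (WT). All cells grew in RPMI-1640 with fetal bovine serum and received no other agent that the labels name. The sources used here do not give how the R320* change was made, whether the line is 1 clone or whether replicates were separate cultures. The p-values therefore rest on the spread among these 6 libraries alone, which may be technical.

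RAB proteins are small GTPases that mark membranes. In the GTP-bound state a RAB sits on a given organelle and recruits effectors such as tethers, motors and fusion factors, and exchange factors (GEFs) and activating proteins (GAPs) switch it on and off. In blood cells they are known for endocytosis of the transferrin receptor, and for the docking of platelet, mast cell and killer cell granules.

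RUNX1 averaged 5165 ± 124 normalized counts in R320* libraries and 2933 ± 31.6 in WT libraries (SD, n = 3 each), a total over the gene that cannot show the stop itself. The erythroid markers GATA1, HBG1, HBE1, TFRC and KLF1 were detected in all libraries; GATA1 averaged 6124 ± 207 in R320* and 8964 ± 175 in WT, and HBG1 averaged 20932 ± 4420 in R320* and 13338 ± 589 in WT. Of the markers of other cell types, CDH5 was at 0 everywhere, MS4A1, DCN, CDH1 and CD3E averaged at most 15.2, and COL1A1 and PECAM1 averaged at most 101 in either genotype. COL1A2, KRT8, EPCAM and CD3D were well detected in both genotypes, so these 4 genes do not set the line apart here; EPCAM averaged 5150 ± 146 in R320* and 2326 ± 29.3 in WT, KRT8 2417 ± 52.8 in R320* and 4820 ± 70.8 in WT, COL1A2 2725 ± 108 in R320* and 3388 ± 41.7 in WT, and CD3D 467 ± 47.7 in R320* and 728 ± 4.32 in WT. Their part in any result below was not tested. Counted in units of each library's smallest value, the library totals came to between 29058471 and 31306435, so depth was much alike. The lowest Pearson correlation between log2 counts of 2 libraries was 0.988 within a genotype and 0.943 between genotypes.

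The RAB27 pair carries the largest change in the family, and its members moved in opposite directions, so the 250 bases before each start are shown, 5′ to 3′ on the gene's own strand, as RefSeq gives them for GRCh38.p14. Capitals mark the only GATA word in each (AGATAA or TGATAA, or either of these with G as the last base, on either strand). RAB27B lies on the plus strand of chromosome 18 from 54717857 to 54895516, and RAB27A on the minus strand of chromosome 15 from 55202966 to 55319123.
RAB27B, chr18:54717607-54717856: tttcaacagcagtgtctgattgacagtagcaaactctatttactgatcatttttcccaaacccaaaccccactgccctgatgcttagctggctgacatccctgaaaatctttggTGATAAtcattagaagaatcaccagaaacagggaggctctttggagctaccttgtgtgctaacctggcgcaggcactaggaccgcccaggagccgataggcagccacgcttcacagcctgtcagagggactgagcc
RAB27A, chr15:55319124-55319373: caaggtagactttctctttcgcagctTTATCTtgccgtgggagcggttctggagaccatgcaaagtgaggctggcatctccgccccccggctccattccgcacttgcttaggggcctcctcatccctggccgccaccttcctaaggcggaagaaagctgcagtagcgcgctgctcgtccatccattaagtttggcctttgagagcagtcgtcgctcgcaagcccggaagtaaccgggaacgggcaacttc

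The RAB27B stretch was 50.4% GC with 4 CpG, and the RAB27A stretch was 58.8% GC with 17 CpG. The GATA word starts at base -136 in RAB27B and at base -224 in RAB27A, counted back from the start. Neither stretch holds the RUNX words TGTGGT or TGCGGT on either strand. A promoter was found for 49 of the 62 RAB genes, and 7 of these (14.3%) hold a RUNX word, against 16.1% of all 27305 promoters of that length in the table and 15.0% of the promoters of genes tested in counts. At least 1 GATA word was in 10 of the 49 (20.4%), against 22.9% of all promoters and 14.1% of those of genes tested in counts. Such matches describe letters and show no binding.

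Across the family, the level per length spanned over 3 orders of magnitude by RPKM. The 6 genes with the highest mean RPKM were RAB11A of the recycling endosome, RAB1B and RAB1A of transport from the ER to the Golgi, RAB2A of the Golgi, RAB7A of late endosomes, and RAB4A of rapid recycling. RAB11A had an RPKM of 120.0, 123 and 124 in R320* libraries, against 154, 144 and 145 in WT libraries. RAB1B had an RPKM of 108.5, 110.6 and 106.5 in R320*, against 112.9, 110.8 and 112.6 in WT. Both genes were lower in every R320* library than in any WT library, RAB1B by a margin so small that it was not called (limma adjusted p = 0.335 in RPKM).

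RAB1A had an RPKM of 85.1, 81.8 and 83.8 in R320* and 96.2, 96.1 and 97.4 in WT, and its 3 R320* values were below all WT values. RAB2A, with 79.9, 81.3 and 81.6 in R320* and 88.7, 77.4 and 87.1 in WT, overlapped between genotypes. RAB7A, with 79.1, 82.1 and 83.1 in R320* and 75.2, 77.9 and 81.8 in WT, also overlapped. RAB4A had 74.3, 83.0 and 65.4 in R320* and 61.7, 59.8 and 73.3 in WT, again with overlap. In R320* libraries the ranges of RAB2A, RAB7A and RAB4A overlapped one another, whereas in WT libraries RAB4A lay below RAB2A and RAB7A, which overlapped.

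**Figure D1:**
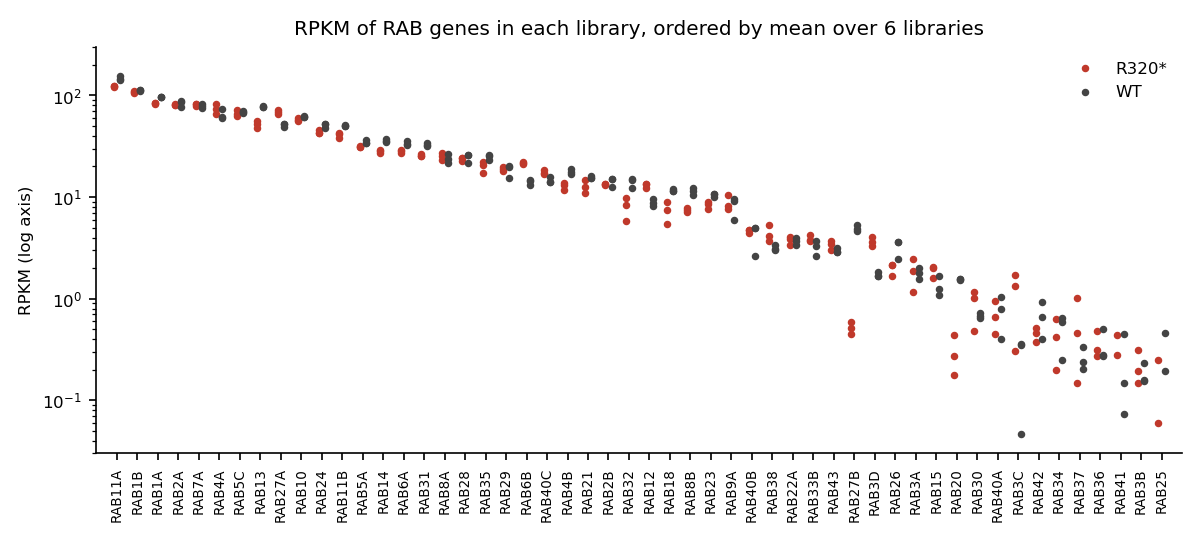
RPKM (log axis) of the RAB genes with a mean of at least 0.1 in both genotypes, ordered by the mean over 6 libraries; each point is 1 library, R320* left of WT, and values of 0 cannot be drawn. RAB11A is highest, and RAB27B and RAB20 show the widest gaps between genotypes.

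At the low end, RAB17, RAB39A and RAB44 were at 0 in every library of both tables. RAB6C, RAB6D, RAB7B, RAB9B, RAB19, RAB25, RAB33A and RAB39B were also too low to test in either table, with means of at most 9.16 normalized counts in each genotype, so 11 of the 62 have no test. RAB34 and RAB4B were tested in RPKM only, and RAB34 was not called. RAB5B, the other early endosomal RAB5, is not among the 62 because its RPKM entry carries another name; it averaged 1438 ± 62.6 normalized counts in R320* and 2330 ± 48.6 in WT. Summed over the 62 genes, RPKM averaged 1249 ± 5.53 in R320* libraries and 1351 ± 20.3 in WT libraries. As a share of a library's whole RPKM this was 0.163% to 0.173% in R320* and 0.171% to 0.176% in WT, and these ranges overlap. As a share of a library's normalized counts it was 0.213% to 0.220% in R320* and 0.229% to 0.235% in WT, with no overlap. In bulk RNA, fewer cells that express a gene and less RNA per cell cannot be told apart.

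In normalized counts, 49 RAB genes had at least 10 in at least 3 libraries and were tested with limma on log2(normalized count + 1), with p adjusted by Benjamini-Hochberg over all 14299 genes that passed. Of these 49, 45 had 10 or more in every library, and RAB3C passed although a WT library fell short. Its WT values alone would not have met the minimum, so its call is no support for the number of higher RAB genes. At an adjusted p below 0.05, 7 RAB genes were higher in R320* cells (14.3%) and 19 were lower (38.8%), while 23 were not called. Over all genes tested, 26.4% were called higher and 27.4% lower. With quantile normalization the split was 10 higher and 17 lower. All genes tested shifted the same way, to 4194 higher and 3551 lower, from 3771 and 3914 without it. Calls in either direction took 53.1% of the RAB genes and 53.7% of all genes, so the family as a whole did not stand apart in how many were called. The median log2 fold change was -0.08 for the RAB genes and 0.01 for all genes.

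Most of these changes were small. A fold of at least 1.5 with a call was seen in 2 RAB genes that were higher (RAB3C, RAB3D) and 5 that were lower (RAB27B, RAB20, RAB8B, RAB32, RAB18), where 8.35% and 11.9% of all genes passed the same rule in those directions. The values of 28 RAB genes (57.1%) did not overlap between genotypes, against 59.8% of all genes tested.

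**Figure D2:**
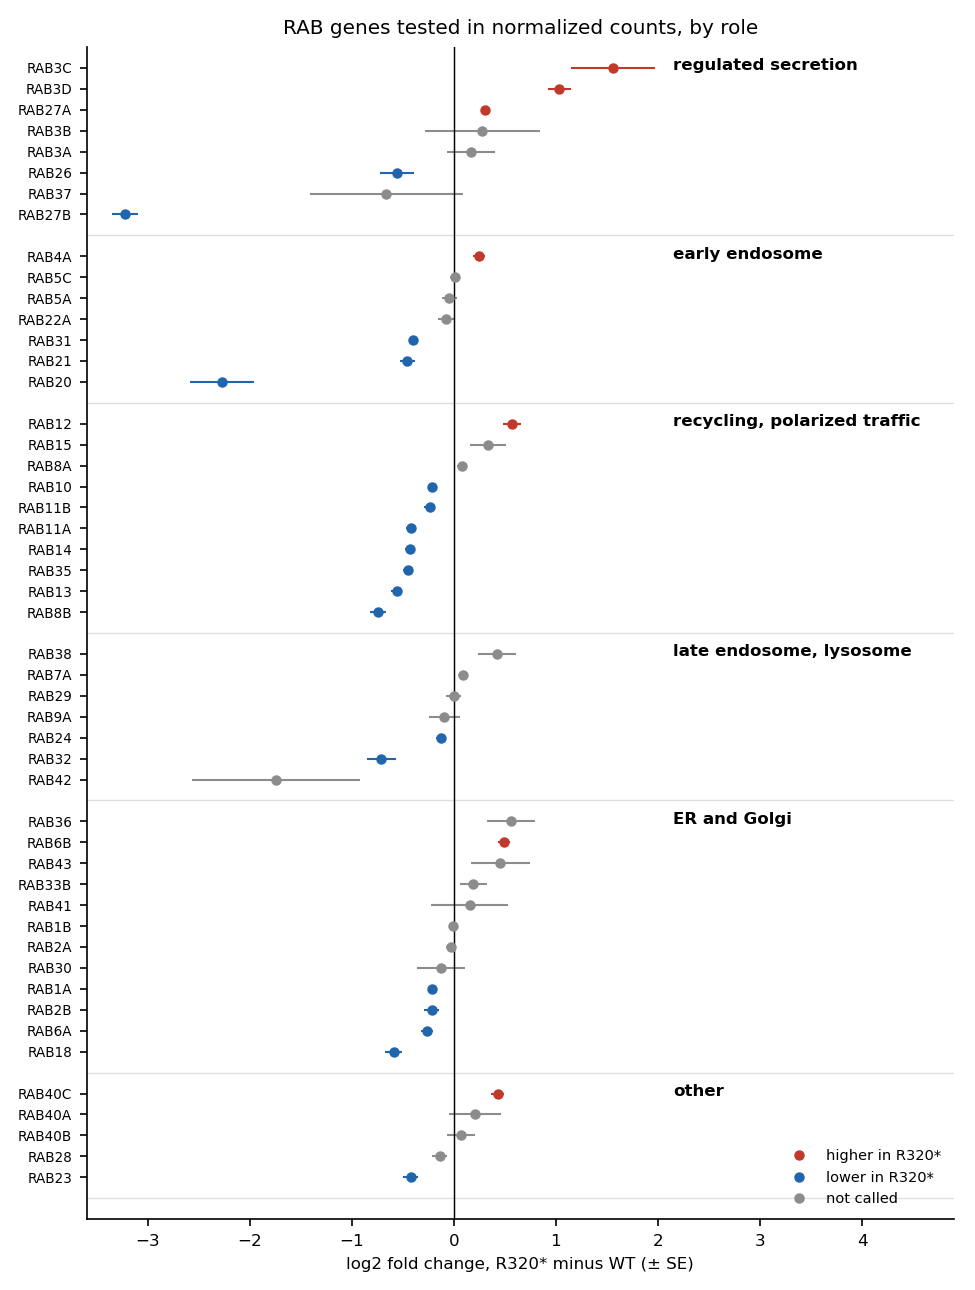
Log2 fold change of normalized counts, R320* minus WT, with its standard error, for the 49 RAB genes tested, grouped by role; red, higher in R320*, blue, lower in R320*, grey, not called. RAB27B and RAB20 lie furthest to the left, and 7 of the 10 genes of recycling and polarized traffic are blue.

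RAB genes of regulated secretion moved in both directions, with 3 of 8 tested genes higher (37.5%) and 2 lower (25%), beside 26.4% and 27.4% of all genes. RAB27B, which acts in the secretion of platelet dense granules in mice, had 84.3, 68.5 and 82.0 normalized counts in R320* libraries, against 749, 728 and 736 in WT libraries. Every R320* value was far below every WT value, a 9.36-fold lower mean on the fitted scale (log2 fold change -3.23, SE 0.13, limma adjusted p = 3.31e-12). By RPKM it averaged 0.518 ± 0.0682 in R320* and 4.93 ± 0.299 in WT.

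Its close relative RAB27A, needed for the release of cytotoxic granules and lost in Griscelli syndrome, had 3495, 3425 and 3379 normalized counts in R320* and 2756, 2749 and 2825 in WT. All R320* values were above all WT values, by a log2 fold change of 0.31 (SE 0.04, limma adjusted p = 1.04e-05). The RPKM of RAB27A was 69.3, 66.4 and 72.5 in R320* and 49.0, 52.9 and 52.5 in WT. RAB27B therefore held 0.740% ± 0.0641 of the pair's summed RPKM in R320* and 8.75% ± 0.501 in WT (SD, n = 3 each). The sum of the pair was 69.9 ± 3.15 in R320* and 56.4 ± 2.28 in WT, since RAB27A supplied most of it in both genotypes. The span of RAB27A, introns included, overlaps PIGBOS1, and whether strand was used in counting is not given. Reads from stretches that the 2 genes share therefore cannot be told apart. RAB27B overlaps no other gene. In all, the spans of 32 of the 62 RAB genes overlap another gene in RefSeq, and the same limit holds for their shared stretches.

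The RAB3 genes act in the late steps of regulated exocytosis. RAB3D, the form known from exocrine and mast cell granules, had 442, 538 and 476 normalized counts in R320* and 245, 237 and 226 in WT. Its R320* values were all above its WT values, with a log2 fold change of 1.03 (SE 0.11, limma adjusted p = 6.60e-07); its span, on chromosome 19 from 11322068 to 11339657, overlaps TSPAN16. RAB3C had 33.3, 26.8 and 41.9 in R320* and 11.5, 6.98 and 15.2 in WT. The genotypes did not overlap in these counts (log2 fold change 1.56, SE 0.41, limma adjusted p = 0.00442). In RPKM they did, with 1.33, 0.302 and 1.73 in R320* and 0.0471, 0.346 and 0.357 in WT. RAB3C did not reach the RPKM minimum and was not tested there. In counts it met the minimum with its R320* values, so its call is no support for the higher share of regulated secretion.

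RAB3A, the form of synaptic vesicles, was not called, with 83.3, 70.5 and 127 normalized counts in R320* and 72.2, 81.8 and 88.0 in WT. RAB3B, at 35.3, 32.7 and 7.62 in R320* and 34.5, 9.97 and 14.2 in WT, was not called either. The values of both genes overlapped between genotypes. RAB26, a RAB of secretory granule maturation, averaged 108 ± 6.41 in R320* and 161 ± 19.3 in WT (log2 fold change -0.56, limma adjusted p = 0.0101), with no overlap; without WT replicate 3 its adjusted p was 0.0533. RAB37 was not called, and RAB44 was at 0. Summed over the 9 genes of this role, RPKM averaged 79.2 ± 3.61 in R320* and 63.8 ± 2.17 in WT, and RAB27A alone averaged 69.4 ± 3.08 in R320* and 51.4 ± 2.17 in WT.

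**Figure D3:**
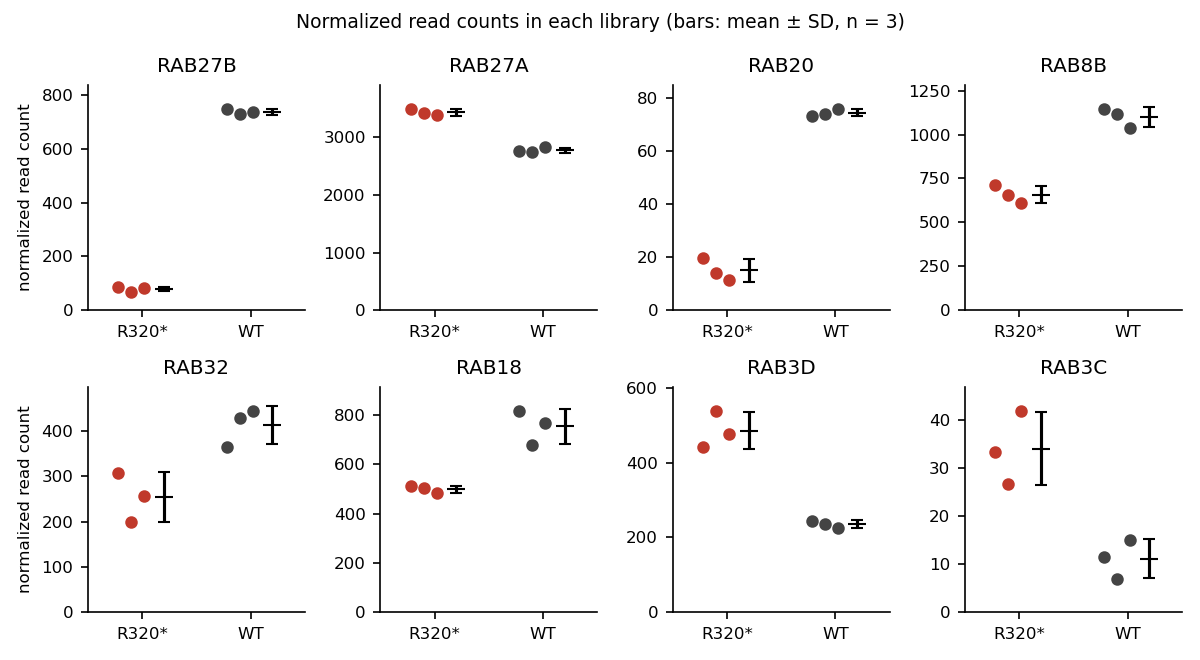
Normalized read counts in each library (axes start at 0) for RAB27A and for the 7 RAB genes called with a fold of at least 1.5; points are libraries, R320* left of WT, and bars give mean ± SD (n = 3). In all 8 panels the genotypes do not overlap.

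Among the early endosomal genes 1 of 7 tested was higher (14.3%) and 3 were lower (42.9%), beside 26.4% and 27.4% of all genes. RAB20, a RAB of endosome and phagosome maturation on chromosome 13 from 110523066 to 110561722, had 19.6, 13.9 and 11.4 normalized counts in R320* and 73.2, 73.8 and 75.8 in WT. It was low in both genotypes, and its R320* values were all below its WT values, a 4.82-fold lower mean (log2 fold change -2.27, SE 0.31, limma adjusted p = 1.28e-05). By RPKM it had 0.438, 0.274 and 0.178 in R320* and 1.55, 1.58 and 1.52 in WT.

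RAB31, which links the trans-Golgi network to endosomes, averaged 2463 ± 45.9 in R320* and 3249 ± 73.1 in WT (log2 fold change -0.40, limma adjusted p = 8.07e-07). RAB21, which takes up integrins, averaged 716 ± 45.9 in R320* and 982 ± 40.4 in WT (log2 fold change -0.46, limma adjusted p = 5.30e-05). The gene of this role that rose was RAB4A, with 2379, 2673 and 2476 normalized counts in R320* and 2047, 2001 and 2291 in WT (log2 fold change 0.25, SE 0.06, limma adjusted p = 0.00196). Its R320* values were just above its WT values in counts, but overlapped in RPKM, where it was not called; its span overlaps RAB4A-AS1. RAB5A and RAB5C, the core early endosome forms among the 62, were not called, with log2 fold changes of -0.04 and 0.02, while RAB5B fell (log2 fold change -0.70, limma adjusted p = 8.24e-09).

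RAB4B was at 0 in every library of the count table but had an RPKM of 12.9 ± 1.14 in R320* and 17.9 ± 0.948 in WT (log2 fold change of RPKM -0.47, limma adjusted p = 0.00633). Of the 50-base words of its transcript, 66.0% are also in the readthrough gene RAB4B-EGLN2, which was at 0 in the count table too.

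Recycling and polarized traffic was the role with the largest share of lower calls, 7 of 10 tested genes (70.0%), beside 27.4% of all genes. Only RAB12 was higher. In RPKM, 5 of 10 were lower (50%), beside 16.8% of all genes. Of the lower genes, only RAB8B changed by a fold of at least 1.5 in counts. The roles were assigned with earlier results of these data known. RAB8B, which moves vesicles to the surface together with RAB8A, had 711, 655 and 609.9 normalized counts in R320* and 1147, 1118 and 1039 in WT. The genotypes were well apart (log2 fold change -0.74, SE 0.08, limma adjusted p = 3.67e-07). RAB8A was not called, averaging 2028 ± 57.6 in R320* and 1915 ± 31.2 in WT, and RAB8B made up 22.9% ± 2.10 of the RPKM of the RAB8 pair in R320* and 32.5% ± 3.61 in WT.

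RAB11A, which returns receptors such as the transferrin receptor to the surface, had 2700.2, 2703 and 2642 normalized counts in R320* and 3767, 3480 and 3532 in WT. All its R320* values were lower (log2 fold change -0.42, SE 0.04, limma adjusted p = 5.95e-07). RAB11B, its close relative, averaged 1994 ± 122 in R320* and 2350 ± 35.7 in WT (log2 fold change -0.24, limma adjusted p = 0.00101). The pair fell side by side, and RAB11A held 74.9% ± 1.26 of its summed RPKM in R320* and 74.6% ± 0.864 in WT.

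The other lower genes of this role were RAB13 of epithelial junctions, RAB14 of endosome to Golgi traffic, RAB35 of fast recycling and RAB10, known for moving GLUT4 vesicles in fat cells. Their log2 fold changes lay between -0.56 (RAB13) and -0.21 (RAB10). RAB13 averaged 1772 ± 133 in R320* and 2608 ± 50.9 in WT, with a limma adjusted p of 2.89e-07. RAB12, which sends the transferrin receptor to lysosomes in mouse cells, averaged 627 ± 1.82 in R320* and 423 ± 32.8 in WT (log2 fold change 0.57, limma adjusted p = 4.12e-05), and its span overlaps RAB12-AS1. The transferrin receptor itself, TFRC, averaged 38529 ± 974 in R320* and 25490 ± 657 in WT. Summed RPKM of the role's 12 genes averaged 369 ± 5.68 in R320* and 444 ± 5.98 in WT.

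Of the 7 tested genes of late endosomes, lysosomes and related organelles, 2 were lower (28.6%), near the 27.4% of all genes, and 0 were higher. RAB32, which with RAB38 delivers cargo to melanosomes and platelet granules, had 308, 198 and 257 normalized counts in R320* and 365, 428 and 444 in WT. The ranges did not overlap, though R320* replicates varied (log2 fold change -0.71, SE 0.14, limma adjusted p = 5.56e-04). RAB38 averaged 137 ± 24.2 in R320* and 101 ± 7.29 in WT and was not called (limma adjusted p = 0.0640).

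RAB7A, which drives fusion with lysosomes, had 4987, 5211 and 5204 normalized counts in R320* and 4685, 4742 and 5082 in WT. These values overlapped, with a log2 fold change of 0.09 and a limma adjusted p of 0.0923; without WT replicate 3 it was called, at an adjusted p of 0.0289. RAB24, linked to autophagy, averaged 2269 ± 59.6 in R320* and 2482 ± 140 in WT (log2 fold change -0.13, limma adjusted p = 0.0440) with overlapping values, and lost the call in 7 of 14 alternatives. RAB42 had few reads, 6.86, 12.9 and 0 in R320* and 14.6, 7.98 and 28.3 in WT, and was not called.

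In the ER and Golgi group, 1 of 12 tested genes was higher (8.33%) and 4 were lower (33.3%), beside 26.4% and 27.4% of all genes. RAB18, which acts at the ER and on lipid droplets, had 511, 504 and 484 normalized counts in R320* and 817, 678 and 769.5 in WT. All 3 R320* values were lower than the WT values (log2 fold change -0.59, SE 0.09, limma adjusted p = 2.13e-05). RAB1A, with 3483, 3396 and 3528 in R320* and 3953, 4012 and 4092 in WT, was lower by a small margin (log2 fold change -0.21, SE 0.04, limma adjusted p = 2.83e-04). RAB1B, with 6012, 6336 and 6347 in R320* and 6256, 6260.1 and 6344 in WT, and RAB2A, with 2968, 2999.6 and 2912 in R320* and 3007, 2871 and 3186 in WT, overlapped and were not called. RAB1A, whose span overlaps CEP68, held 43.5% ± 0.866 of the RAB1 pair's RPKM in R320* and 46.3% ± 0.232 in WT. RAB2B was also lower (log2 fold change -0.22, limma adjusted p = 0.0237), a call lost in 4 of 14 alternatives.

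The RAB6 pair of Golgi transport moved apart. RAB6B, the form enriched in neurons, averaged 1917 ± 105 in R320* and 1363 ± 79.9 in WT (log2 fold change 0.49, limma adjusted p = 3.15e-06); its span overlaps SRPRB. RAB6A, the ubiquitous form, averaged 2115 ± 160.3 in R320* and 2533 ± 172 in WT (log2 fold change -0.26, limma adjusted p = 0.00181). RAB6B held 43.4% ± 1.20 of the group's RPKM in R320* and 29.4% ± 0.906 in WT. Of the 50-base words of RAB6A, 21.6% recur in other RAB genes, chiefly RAB6C, so its count is less certain; none of RAB6B recur.

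Outside these roles, RAB40C, part of a ubiquitin ligase, averaged 1483 ± 109 in R320* and 1099 ± 51.5 in WT (log2 fold change 0.43, limma adjusted p = 3.45e-05). RAB23, an inhibitor of hedgehog signalling, averaged 879 ± 28.0 in R320* and 1183 ± 98.4 in WT (log2 fold change -0.43, limma adjusted p = 8.51e-05). RAB28, RAB40A and RAB40B were not called.

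To see whether RAB genes moved with their surroundings, each was set beside up to 25 tested genes on either side of it on the chromosome. RAB40B, RAB2B and RAB9A had fewer than 50 neighbours in all, at 32, 46 and 49. The neighbours' median log2 fold change ran from -0.64 (RAB21) to 0.29 (RAB12). Of the 26 called RAB genes, 18 had the sign of their neighbours' median, as did 31 of all 49 tested. The same count was not made for genes outside the family. Only for RAB21 and RAB35, both on chromosome 12, was the neighbours' median at least 0.5 in size, at -0.64 and -0.51, beside log2 fold changes of -0.46 and -0.45 for the genes themselves. Smaller medians also came with neighbours called mostly in 1 direction: for RAB24, on chromosome 5, 35 of 50 were lower and 1 higher. For RAB12, 33 were higher and 3 lower, and for RAB31, which itself fell, 29 were higher and 4 lower. RAB5B, on chromosome 12 from 55973949 to 55996683, had a neighbours' median of -0.71, with 44 of 50 neighbours lower and 0 higher. For RAB27B and RAB20 the medians were 0.02 and -0.02. RAB27A rose beside neighbours with a median of -0.20, and RAB31 fell beside neighbours with a median of 0.21.

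**Figure D4:**
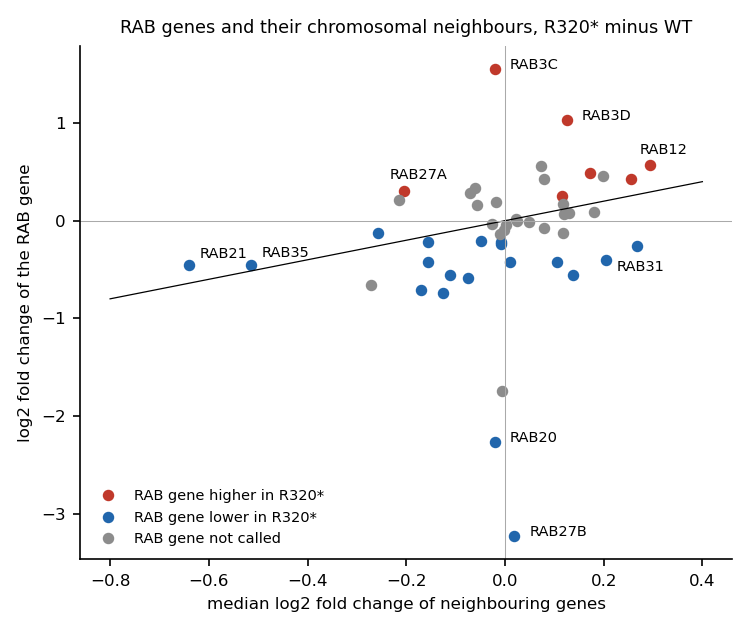
Log2 fold change (R320* minus WT) of each of the 49 tested RAB genes against the median of its neighbours, up to 25 tested genes on each side. The line marks equal values. RAB21 and RAB35 lie on the left with lowered neighbours, while RAB27B and RAB20 lie far below neighbours with medians near 0.

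The same libraries were read through the RPKM table, with limma on log2(RPKM + 0.1). Of 46 RAB genes tested there, 5 were higher and 15 were lower, where 15.1% and 16.8% of 17769 genes were called in those directions; without WT replicate 3 the lower count was 10. In the 44 RAB genes tested in both tables, 5 were higher in both, 14 were lower in both and 0 were called in opposite directions. RAB26, RAB21, RAB35, RAB2B, RAB10 and RAB4A were called in counts only. In RPKM, RAB3D had a log2 fold change of 1.04 (limma adjusted p = 0.00229), RAB27B of -3.03 and RAB20 of -2.11. RAB20 was below 0.5 in all R320* libraries and RAB27B in 1 of them, so both met the RPKM minimum through their WT values, and their RPKM calls are no separate support. The 2 tables come from the same reads and so are not independent.

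**Figure D5:**
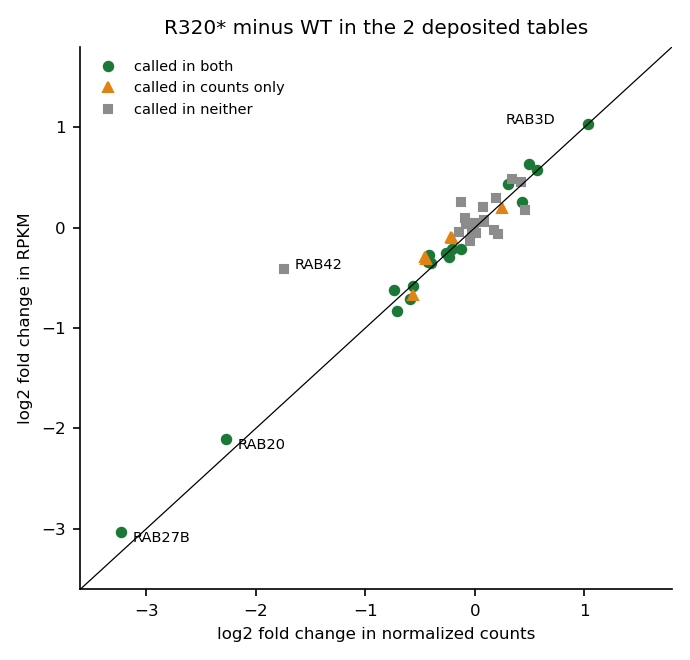
Log2 fold change (R320* minus WT) of the 44 RAB genes tested in both tables, normalized counts on the x axis and RPKM on the y axis; the line marks equal values. Called genes lie near the line, and RAB42, which was not called, lies furthest from it.

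The proteins that serve RABs were read from lists of known partners. Of 10 escort and prenylation genes, 3 were higher and 3 were lower (30.0% each), near the 26.4% and 27.4% of all genes (median log2 fold change 0.02). PDE6D, which carries prenylated proteins, averaged 80.1 ± 20.1 in R320* and 171 ± 11.9 in WT (log2 fold change -1.12, limma adjusted p = 1.86e-04). CHML, an escort protein that presents RABs for prenylation, averaged 16433 ± 1159 in R320* and 13206 ± 385 in WT (log2 fold change 0.31, limma adjusted p = 1.79e-05). RABGGTB, the beta subunit of the RAB prenyl transferase, was higher (log2 fold change 0.21, limma adjusted p = 0.00459), a call lost without the intensity trend (limma adjusted p = 0.0718).

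Among the GEFs, 9 of 37 tested were higher (24.3%) and 8 were lower (21.6%), near the 26.4% and 27.4% of all genes (median log2 fold change 0.05). RAB3IP, the GEF of RAB8, averaged 293 ± 22.5 in R320* and 748 ± 15.2 in WT (log2 fold change -1.35, limma adjusted p = 2.79e-09). MADD, the GEF of RAB3 and RAB27, averaged 2049 ± 142 in R320* and 3625 ± 189 in WT (log2 fold change -0.82, limma adjusted p = 2.49e-09). HPS1, part of the GEF of RAB32 and RAB38, averaged 1474 ± 56.2 in R320* and 2138 ± 125 in WT (log2 fold change -0.54, limma adjusted p = 5.79e-07), and DENND4C, a GEF of RAB10, fell as well (log2 fold change -0.56, limma adjusted p = 7.47e-07). These 4 GEFs were named only for having the smallest p. The 9 higher GEFs, with log2 fold changes of up to 2.03, come after them in that order.

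Of 36 GAPs tested, 10 were higher (27.8%) and 13 were lower (36.1%), beside 26.4% and 27.4% of all genes (median log2 fold change 0.01). TBC1D1, a GAP of RAB10, averaged 4599 ± 107 in R320* and 3107 ± 11.6 in WT (log2 fold change 0.57, limma adjusted p = 4.27e-09), and TBC1D12 was higher too (log2 fold change 0.89, limma adjusted p = 6.44e-08). RABGAP1L averaged 818 ± 59.7 in R320* and 1550.1 ± 56.4 in WT (log2 fold change -0.92, limma adjusted p = 5.59e-09), and RAB3GAP1, which acts on RAB3 and, as a GEF, on RAB18, was lower (log2 fold change -0.49, limma adjusted p = 2.69e-08).

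Among the effectors, 9 of 48 tested were higher (18.8%) and 16 were lower (33.3%), beside 26.4% and 27.4% of all genes (median log2 fold change -0.03). OPTN, an effector of RAB8 and a receptor of autophagy, averaged 203 ± 38.9 in R320* and 979 ± 53.0 in WT (log2 fold change -2.28, limma adjusted p = 1.61e-10). MICAL1, which oxidizes actin, averaged 358 ± 21.0 in R320* and 822 ± 39.0 in WT (log2 fold change -1.20, limma adjusted p = 5.28e-09). MICALL2, a RAB13 effector at junctions, averaged 12540.4 ± 372 in R320* and 7143 ± 126 in WT (log2 fold change 0.81, limma adjusted p = 1.18e-11). KIF20A, a kinesin that binds RAB6, was lower (log2 fold change -0.61, limma adjusted p = 1.43e-08).

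The effectors of RAB27 were singled out after their values were seen. SYTL1 averaged 127 ± 11.2 in R320* and 336 ± 31.9 in WT (log2 fold change -1.39, limma adjusted p = 3.05e-07), and SYTL5 averaged 28.6 ± 1.86 in R320* and 79.5 ± 16.2 in WT (log2 fold change -1.43, limma adjusted p = 2.77e-04). UNC13D, which primes granules for fusion, and SYTL4 were lower by less, with log2 fold changes of -0.34 and -0.27. SYTL2, SYTL3, MYRIP, EXPH5 and RPH3AL were not called, and MLPH was too low to test. The log2 fold changes were 0.80 for SYTL2, 0.90 for RPH3AL, 0.29 for MYRIP, 0.13 for EXPH5 and -0.30 for SYTL3. SYTL2, RPH3AL and MYRIP were low, averaging at most 33.1 in either genotype.

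Of the 5 partner lists, that of platelet granule machinery leaned most to one side, with 2 of 29 tested genes higher (6.90%) and 17 lower (58.6%), beside 26.4% and 27.4% of all genes. SYTL4 and UNC13D, both lower, are counted here and also among the effectors. The lists were written with earlier results of these data known. The median log2 fold change of the platelet granule list was -0.21, beside 0.01 for all genes. STX11, a fusion protein of granule release, was at 0 in all 3 R320* libraries, against 63.8, 55.8 and 34.4 normalized counts in WT, and was at least 17.5-fold lower against a floor of 3 of the smallest values in a library. It met the minimum of 10 only through its WT values, so its call is no support for the list's count. LYST, lost in Chediak-Higashi syndrome with its giant granules, averaged 278 ± 10.4 in R320* and 1105 ± 54.7 in WT (log2 fold change -1.99, limma adjusted p = 6.77e-12). VAMP8, the fusion protein on the granule side, averaged 520.4 ± 9.55 in R320* and 1391 ± 73.7 in WT (log2 fold change -1.42, limma adjusted p = 4.19e-11). With STX11 at its bound, the median of the list was -0.21. It could not have changed, since STX11 lies far below that median with or without the bound.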

How the data were processed

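RNA of 6 K562 libraries, 3 RUNX1 R320* and 3 WT, was measured by sequencing. The submitters' processing notes name the build hg38 and the tools HISAT2, featureCounts, Salmon and DESeq2, with no version or role. The signal values deposited by the authors were normalized read counts for 28395 Entrez genes, of which 27745 matched a RefSeq symbol; within each library, all of them (100%, within 1e-06) were multiples of the smallest one. The RPKM values deposited by the authors sum to between 721735 and 786389 per library, so RPKM and a TPM scale with genes left out cannot be told apart. No read-count model was run, since the unit check did not accept the multiples among normalized counts as whole reads in every library.

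Genes had to reach 10 normalized counts, or an RPKM of 0.5, in 3 or more libraries. Log2(normalized count + 1) and log2(RPKM + 0.1) were then fitted with limma 3.58.1 in R 4.3.3 (empirical Bayes with an intensity trend, Benjamini-Hochberg over all genes tested, called below 0.05). The fit was tested on simulated data in which far fewer genes changed than were called here. That test therefore does not show how often calls are false at this share. Fold changes on these scales understate the change of low genes. Members, roles and partner lists were chosen from names and textbook knowledge with earlier results of these data known. Values in every library are given for RAB genes called with a fold of at least 1.5, for the 6 highest in RPKM and for genes with the same digits as one called with a fold of at least 2; from each partner list up to 4 genes with the smallest adjusted p are named; a few listed genes are not reported here. Symbols, positions and promoters came from RefSeq GRCh38.p14. Transcript words of 50 bases were compared between RAB-named genes of GENCODE release 29. Alternatives covered the filter, pseudocount, scaling, intensity trend, a block for the replicate number and leaving out each library.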

Additional observations from a re-analysis of the deposited data

How the results depend on the processing

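The counts of RAB genes called stayed within 1.5 times of those reported under all alternatives run. Leaving out 1 library gave 7 to 8 higher and 17 to 19 lower RAB genes in counts, 4 to 5 higher and 10 to 15 lower in RPKM, and 3210 to 3474 higher and 3372 to 3784 lower over all genes. Of 26 called RAB genes, 23 kept the call in each of the 14 count-table alternatives that tested them; RAB2B, RAB24 and RAB26 did not. RAB3C was not tested with a minimum of 50. Single RAB genes were followed through the alternatives only if they were called or had values given in every library. Among these, signs turned only in genes that were not called. Of the 44 RAB genes tested in both counts and RPKM, 37 had the same sign in both. The log2 fold change ran from -0.0266 to 0.0125 for RAB1B, from -0.0647 to 0.0103 for RAB2A, from -0.0680 to 0.351 for RAB3A and from -0.0835 to 0.953 for RAB3B when 1 library was left out, and was -0.0223 for RAB3A in RPKM; the cause was not tested. The replicate numbers did not pair the libraries (correlations of same-numbered deviations 0.0316, -0.0031 and -0.0033). With the replicate number as a block there were 7 higher and 19 lower RAB genes in counts and 4 and 14 in RPKM. The edgeR and DESeq2 alternatives were not run, since the unit check did not accept the normalized counts as whole reads for every library. Scaling moved the median of all genes by at most 0.04. Low counts limit RAB3B, RAB3C, RAB20, RAB37 and RAB42.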
